A study of Homo sapiens with 6 samples.

Results

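EGFR and its relatives ERBB2 and ERBB3, the ligands AREG, EREG, HBEGF, TGFA, BTC and NRG1, and the receptor inhibitor ERRFI1 were followed in 2 bladder carcinoma cell lines treated with siRNAs in a study of the heat shock transcription factor HSF1. These 10 genes were chosen by name as ERBB receptors, their ligands and a feedback inhibitor, out of 26835 genes listed in the deposited tables. Their Ensembl identifiers are ENSG00000146648 (EGFR), ENSG00000141736 (ERBB2), ENSG00000065361 (ERBB3), ENSG00000109321 (AREG), ENSG00000124882 (EREG), ENSG00000113070 (HBEGF), ENSG00000163235 (TGFA), ENSG00000174808 (BTC), ENSG00000157168 (NRG1) and ENSG00000116285 (ERRFI1). T24 and UM-UC-3 are established human lines, and each gave 1 library of cells given a negative control, 1 of cells given siRNA-1 and 1 of cells given siRNA-2, all for 48 h, with 0.04 OD of each siRNA. The labels do not say whether the control was itself an siRNA, and the lines were grown in different media. The siRNA target is not in the labels, but the title of the series and headers of the UM-UC-3 tables point to HSF1. Separate cultures are not stated for the libraries, and the p-values below reflect only the spread among these 6, which may be technical.

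ERBB receptors are tyrosine kinases of the cell surface that pair with each other when a ligand binds, and their signal runs through the RAS-MAPK and PI3K-AKT cascades to growth, migration and survival. EGFR binds AREG, EREG, HBEGF, TGFA and BTC, ERBB3 binds NRG1 and has little kinase activity of its own, and ERBB2 has no known soluble ligand and acts as the preferred partner of the others. ERRFI1, also called MIG6, is induced by the receptors' own signal and binds their kinase domain to switch it off. The ligands are made as membrane proteins and released by ADAM proteases. In the urothelium this system drives regrowth after injury, and EGFR, ERBB2 and ERBB3 are often raised in bladder carcinoma.

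HSF1 recognises inverted repeats of the block GAA, so the starts of the members were searched for them. RefSeq promoters were at hand for 8 of the 10 members, with none for ERBB3 or NRG1, and the 250 bases before the start were read on build GRCh38.p14. The motifs were the heat shock units GAANNTTC and TTCNNGAA, the AP-1 motif TGANTCA, the GC box GGGCGG and CCAAT, each on both strands. GC boxes may overlap each other. Capitals mark every match. The 4 sequences shown are those of EGFR, ERBB2 and the ligands HBEGF and EREG. EGFR lay below its control in every siRNA library, and the start of ERBB2 held a heat shock unit. The siRNA libraries of HBEGF and EREG lay on opposite sides of the control in the lines, in part within counting error. Those of TGFA and BTC did so too, as did those of 18.6% of all genes tested.
EGFR, chr7:55018767-55019016, plus strand: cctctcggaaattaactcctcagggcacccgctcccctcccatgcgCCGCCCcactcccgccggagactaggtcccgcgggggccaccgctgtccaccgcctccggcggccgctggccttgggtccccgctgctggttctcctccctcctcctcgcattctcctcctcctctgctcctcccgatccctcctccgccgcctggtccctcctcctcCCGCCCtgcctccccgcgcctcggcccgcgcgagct
ERBB2, chr17:39687844-39688093, plus strand: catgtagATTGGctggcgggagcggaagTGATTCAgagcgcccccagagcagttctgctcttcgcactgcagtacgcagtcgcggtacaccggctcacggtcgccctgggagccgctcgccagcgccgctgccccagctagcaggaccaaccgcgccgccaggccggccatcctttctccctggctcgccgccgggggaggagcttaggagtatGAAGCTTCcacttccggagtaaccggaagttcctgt
HBEGF, chr5:140346604-140346853, minus strand: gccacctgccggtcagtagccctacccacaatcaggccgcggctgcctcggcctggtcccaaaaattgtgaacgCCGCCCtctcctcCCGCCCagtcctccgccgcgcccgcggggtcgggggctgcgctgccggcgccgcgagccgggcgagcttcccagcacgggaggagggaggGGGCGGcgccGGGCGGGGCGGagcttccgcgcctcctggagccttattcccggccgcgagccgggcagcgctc
EREG, chr4:74364895-74365144, plus strand: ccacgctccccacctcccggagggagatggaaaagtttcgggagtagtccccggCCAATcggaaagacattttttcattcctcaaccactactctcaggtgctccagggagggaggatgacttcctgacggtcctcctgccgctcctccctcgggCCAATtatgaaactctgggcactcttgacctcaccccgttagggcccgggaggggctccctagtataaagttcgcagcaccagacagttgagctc
The EGFR window was 73.6% G and C and held 2 GC boxes and no heat shock unit, and the HBEGF window was 76.4% G and C with 5 GC boxes. The EREG window was 58% G and C and held 2 CCAAT boxes and no GC box. The ERBB2 window held GAAGCTTC, a match to GAANNTTC, 36 bases before the start, and it was the only member window with a heat shock unit. Over all 35116 RefSeq promoters, 5.78% held GAANNTTC, 6.62% TTCNNGAA, 6.57% TGANTCA, 42.6% GGGCGG and 32% CCAAT. A second EGFR start in the same table held TGANTCA at 2 places. A match is a run of letters and was not tested as a binding site.

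The libraries held 23709089 to 28504833 gene-assigned reads, so that 1 read was worth 0.0351 to 0.0422 CPM, the deposited unit, in which the reads of a gene are scaled to the library's gene-assigned total. To check the labels, HSF1 read 106 CPM in the T24 control against 20.3 CPM under siRNA-1 and 22.7 CPM under siRNA-2, while UM-UC-3 gave 138, 50.3 and 36.5 CPM. The keratins KRT8 and KRT18 of simple epithelium were both detected, with KRT8 at 492 to 795 CPM in T24 and 24.2 to 29.1 CPM in UM-UC-3. KRT18 was at 285 to 335 CPM in T24 and 186 to 250 CPM in UM-UC-3. The urothelial plaque genes UPK1A, UPK1B, UPK2 and UPK3B and the epithelial markers CDH1 and EPCAM were at no more than 0.403 CPM or not listed, and UPK3A and KRT5 were not listed in either line. FOXA1 was at 7.93 to 11.6 CPM in T24 and 2.71 to 3.76 CPM in UM-UC-3. PPARG was at 5.75 to 16.1 and 1.36 to 2.42 CPM, and KRT7 at 1.92 to 7.63 and 0.702 to 1.6 CPM. GATA3 reached 1.16 CPM and ELF3 1.86 CPM. KRT13, KRT19, KRT20, TP63 and GRHL3 were at no more than 0.281 CPM or not listed. The 18 listed of 20 urothelial and epithelial markers summed to 1161, 1072 and 805 CPM across the T24 libraries (control, siRNA-1, siRNA-2), while UM-UC-3 gave 288, 223 and 219 CPM. KRT8 and KRT18 made up most of each sum. The 9 listed of 15 markers of blood, vessel and stromal cells summed to 6.77, 4.2 and 6.32 CPM in T24 and to 10.9, 13.8 and 19.3 CPM in UM-UC-3, and the leukocyte marker PTPRC was at no more than 0.224 CPM. In UM-UC-3 the stromal collagen COL1A1 stood at 2.44, 7.92 and 12.3 CPM (log2 fold change 1.66, limma-trend, unadjusted p = 0.0101, adjusted p = 1), above the control in both siRNA libraries, and the endothelial PECAM1 at 4.08, 3.7 and 1.93 CPM, below it in both. Their part in the results below was not tested.

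Of the 10 members, 10 were listed in T24 and 9 in UM-UC-3, and all of them entered the tests, which needed a mean of 1 CPM over the libraries fitted. EREG in T24 and BTC in UM-UC-3 lay below 1 CPM in each library and entered through their level in the other line. The tests used log2(CPM + 1), so their fold changes are compressed for genes this low. The plot of levels by library shows that T24 held more of most members and UM-UC-3 more EREG and ERRFI1.

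**Figure D1:**
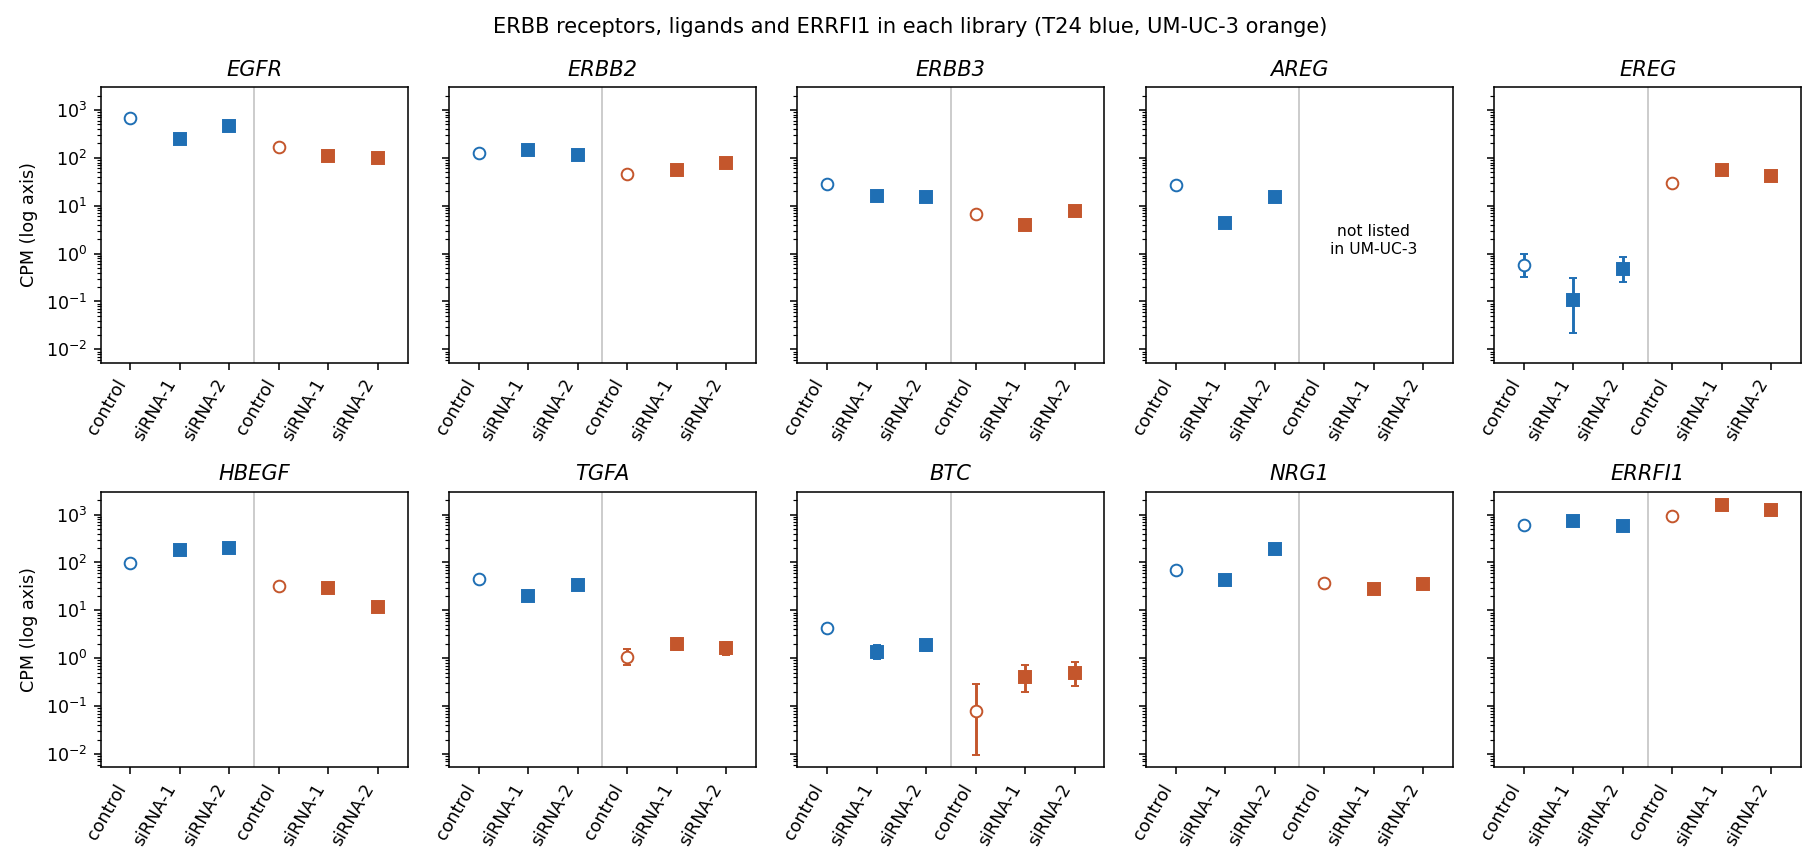
Level of each member in CPM (log axis) in the 6 libraries, with open circles for controls, filled squares for siRNA libraries and bars for the 95% exact Poisson interval of the reads, which covers counting error only. EREG lies below 1 CPM in the 3 T24 libraries and at 29.4 to 54.5 CPM in the 3 UM-UC-3 libraries, and AREG is listed in T24 alone.

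EGFR, the receptor of most of the ligands studied here, was lower than the control in all 4 siRNA libraries. The T24 control gave 674 CPM, its siRNA-1 library 243 CPM and its siRNA-2 library 464 CPM. The UM-UC-3 control gave 168 CPM, its siRNA-1 library 107 CPM and its siRNA-2 library 101 CPM. Relative to its control, T24 siRNA-1 held 36% (95% counting interval of the ratio 0.35 to 0.371) and siRNA-2 68.9% (0.673 to 0.705), while those of UM-UC-3 held 63.5% (0.606 to 0.666) and 59.9% (0.571 to 0.628). Fitted across the lines, EGFR had a log2 fold change of -0.85 ± 0.28 (SE) and did not pass (limma-trend, unadjusted p = 0.0154, adjusted p = 0.424). EGFR was the only 1 of the 9 members tested over both lines that lay below the control in 4 of 4 siRNA libraries, against 12.2% of all genes, and none lay above it in all 4, against 18.8%. Within T24 the fitted fold was 0.499 (adjusted p = 0.419) and within UM-UC-3 0.619 (adjusted p = 1), and the log2 difference between the lines was 0.31 with a 95% interval of -1.10 to 1.72. The T24 value differed by which siRNA library was left out. It was -0.54 without siRNA-1 (adjusted p = 0.35) and -1.47 without siRNA-2 (adjusted p = 0.0318), settings in which 0.574% and 4.25% of all genes passed. Each sets 1 T24 siRNA library against 1 control, with the spread taken from the UM-UC-3 siRNA libraries alone.

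ERBB2 did not share that pattern. It measured 126, 148 and 114 CPM across the T24 libraries (control, siRNA-1, siRNA-2), while UM-UC-3 gave 46.4, 54.9 and 79.0 CPM. In T24 the siRNA libraries lay on either side of the control, and in UM-UC-3 both lay above it, at 1.18 times (1.1 to 1.28) and 1.7 times (1.59 to 1.83) its level. The log2 fold change was 0.27 ± 0.26 over both lines (limma-trend, adjusted p = 0.748), 0.05 in T24 and 0.50 in UM-UC-3, and none passed. Under TMM scaling the T24 value was -0.02, so the sign depends on the scaling.

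ERBB3 had the lowest level per kilobase of the 3 receptor members. It had 27.9 CPM in the T24 control, 16.0 CPM under siRNA-1 and 15.5 CPM under siRNA-2, while the UM-UC-3 libraries gave 6.76, 3.96 and 7.68 CPM. Both T24 siRNA libraries lay below the control, at 57.4% and 55.4% of its level, and in UM-UC-3 siRNA-1 lay below it at 58.5% and siRNA-2 did not differ from it beyond counting error (ratio 1.14, 0.925 to 1.4). The log2 fold change was -0.79 ± 0.43 in T24 (limma-trend, adjusted p = 0.502) and -0.24 ± 0.43 in UM-UC-3 (adjusted p = 1). ERBB4, the other neuregulin receptor and not a member, stood at 5.06, 1.59 and 1.05 CPM in T24 (log2 fold change -1.40, unadjusted p = 0.00979, adjusted p = 0.295) and was not listed in UM-UC-3.

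Levels of different genes were compared per kilobase of merged exon length in GENCODE 29, matched by Ensembl identifier. On that scale EGFR made up 69.3% of the summed level of the 4 ERBB receptors in the T24 control, ERBB2 25.9% and ERBB3 4.38%. With siRNA-1 in T24 EGFR was at 42.9% and ERBB2 at 52.5%, and with siRNA-2 EGFR led at 64.7%. In the UM-UC-3 control EGFR held 62% and ERBB2 34.2%, and with siRNA-1 and siRNA-2 EGFR held 47.9% and 37.2% and ERBB2 49.4% and 58.5%. Per kilobase, ERBB2 was thus above EGFR in 3 of the 4 siRNA libraries and below it in both controls, with 49.4% against 47.9% in UM-UC-3 siRNA-1. This order depends on the merged exon lengths used, 11.33 kilobases for EGFR and 5.66 for ERBB2. In CPM, EGFR was above ERBB2 in every library. The siRNA-1 and siRNA-2 libraries gave 243 against 148 and 464 against 114 CPM in T24. Those of UM-UC-3 gave 107 against 54.9 and 101 against 79 CPM. The receptor sum itself was 85.9, 49.9 and 63.3 CPM per kilobase in T24 and 23.9, 19.7 and 23.9 in UM-UC-3. These are shares of single libraries, and no test was made on them.

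**Figure D2:**
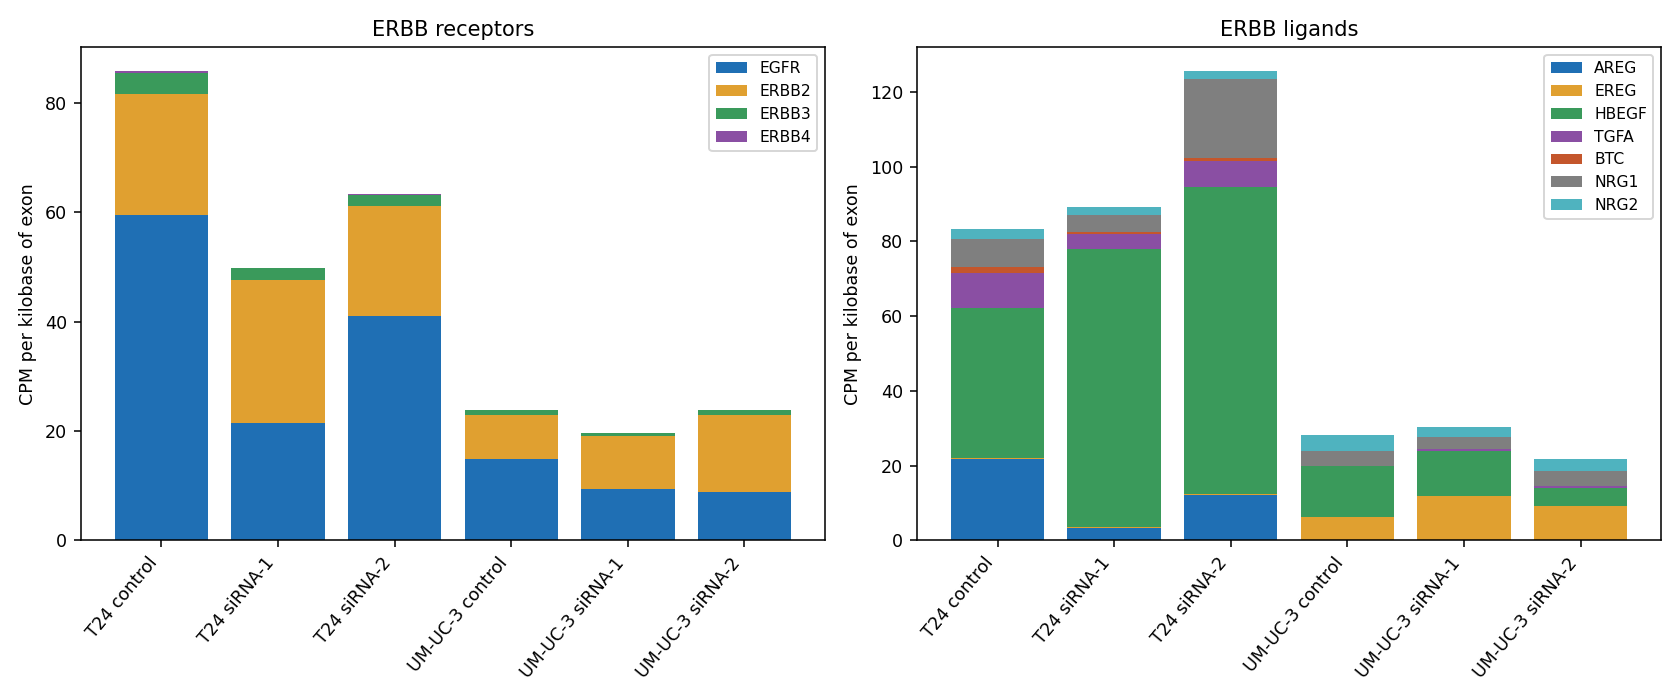
Stacked levels in CPM per kilobase of exon of the ERBB receptors (left) and of 7 ligands (right) in each library, with members that a line's tables do not list drawn at 0. EGFR is the largest receptor part in both controls and in T24 siRNA-2, and HBEGF is the largest ligand part in T24.

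HBEGF, a heparin-binding ligand of EGFR, lay above the control in the T24 siRNA libraries and below it in those of UM-UC-3. It measured 95.9, 178 and 196 CPM across the T24 libraries (control, siRNA-1, siRNA-2), while UM-UC-3 gave 31.9, 29.1 and 11.9 CPM. Both T24 siRNA libraries lay above the control, at 1.85 times (1.76 to 1.95) and 2.04 times (1.95 to 2.15) its level. In UM-UC-3 siRNA-2 lay at 37.4% of the control (ratio 0.328 to 0.425), and siRNA-1 at 91.2%, within counting error of it (0.825 to 1.01). The log2 fold change was 0.95 ± 0.51 in T24 (limma-trend, adjusted p = 0.493) and -0.74 ± 0.51 in UM-UC-3 (adjusted p = 1), and the difference between them, UM-UC-3 minus T24, was -1.69 ± 0.72 (limma-trend, unadjusted p = 0.0545, adjusted p = 0.948). In that test of the difference BTC was the 1 member of 9 with an unadjusted p under 0.05, against 4.69% of all genes. HBEGF was the only member at least 1.5-fold above the control in both T24 siRNA libraries, 1 of 10 against 10.5% of all genes.

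AREG, amphiregulin, was listed in T24 and not in UM-UC-3. It stood at 27.1 CPM in the T24 control, 4.27 CPM with siRNA-1 and 15.1 CPM with siRNA-2, or 15.7% (ratio 0.128 to 0.192) and 55.8% (0.492 to 0.633) of the control. Both siRNA libraries were lower, and they differed from each other 3.55-fold. The log2 fold change within T24 was -1.61 ± 0.70, in a fit where the 3 T24 libraries alone gave AREG a value (limma-trend, adjusted p = 0.447). In each line a gene listed beside a control or siRNA library at 0 reads had at least 5 reads in the other, so a gene that is not listed is taken to have had at most 4 reads, but whether the annotation used for UM-UC-3 held AREG is not given in the sources. Of 3278 genes within 2-fold of AREG's mean level in T24, 61 (1.86%) were not listed in UM-UC-3. Older genome builds carried a near-identical copy of AREG, so its level may be affected by reads split between the copies or dropped.

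TGFA, the transforming growth factor alpha ligand, had 45.2 CPM in the T24 control, 19.6 CPM under siRNA-1 and 33.8 CPM under siRNA-2, while the UM-UC-3 libraries gave 1.08, 2.02 and 1.61 CPM. The T24 siRNA libraries lay below the control at 43.3% and 74.8% of its level. In UM-UC-3, with 27 reads in the control, siRNA-1 lay above it (ratio 1.87, 1.16 to 3.08) and siRNA-2 did not differ from it beyond counting error (1.49, 0.909 to 2.5). BTC, betacellulin, had the lowest level per kilobase of the members listed in UM-UC-3, where AREG was not listed. It stood at 4.22, 1.34 and 1.87 CPM in T24, where both siRNA libraries were at less than the control (ratios 0.317, 0.212 to 0.467, and 0.443, 0.309 to 0.628). In UM-UC-3 BTC had only 2 control reads, against 11 under siRNA-1 (ratio 5.04, counting interval 1.1 to 46.8) and 14 under siRNA-2 (6.14, 1.41 to 55.6). Within T24 the BTC log2 fold change of -1.01 ± 0.31 had an unadjusted p of 0.0155, and after adjustment it did not pass (limma-trend, adjusted p = 0.325).

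EREG, epiregulin, was nearly absent from T24, with 14, 3 and 13 reads in control, siRNA-1 and siRNA-2 (0.59, 0.109 and 0.486 CPM). In UM-UC-3 it stood at 29.4, 54.5 and 42.1 CPM, so that both siRNA libraries lay above the control, at 1.85 times (1.7 to 2.03) and 1.43 times (1.3 to 1.57) its level. The log2 fold change within UM-UC-3 was 0.69 ± 0.38 (limma-trend, adjusted p = 1).

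NRG1, neuregulin 1, the ligand of ERBB3 and ERBB4, differed between the T24 siRNA libraries. Its T24 level was 68.9 CPM in the control, 42.6 CPM with siRNA-1 and 195 CPM with siRNA-2, or 61.9% (ratio 0.574 to 0.667) and 2.83 times (2.67 to 2.99) the control. In UM-UC-3 it stood at 36.8, 28.2 and 35.7 CPM. The siRNA-2 library held 4.57 times the NRG1 of the siRNA-1 library in T24 (counting interval 4.29 to 4.87) and 1.27 times in UM-UC-3 (1.15 to 1.39). Over both lines siRNA-2 against siRNA-1 gave a log2 fold change of 1.25 ± 0.39 (limma-trend, unadjusted p = 0.00746, adjusted p = 0.219), which did not pass, while 0.279% of all genes did, and no other member reached an unadjusted p of 0.05, against 12.1% of all genes that did. Without the T24 control, the UM-UC-3 control, UM-UC-3 siRNA-1 or UM-UC-3 siRNA-2 it had adjusted p of 0.0374, 0.0274, 0.00445 and 0.0291, in settings where 3.32%, 3.5%, 3.65% and 0.658% of all genes passed. Without T24 siRNA-1 or T24 siRNA-2 the value was 0.71 or 0.41 (adjusted p = 1 and 0.997), so it rests on those libraries. Since the T24 siRNA libraries lay on opposite sides of the control, their mean stood at a log2 fold change of 0.40 ± 0.81 from it.

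Per kilobase, HBEGF was the leading ligand in T24, with 48.3% of the summed level of 7 ligands in the control library, 83.5% under siRNA-1 and 65.4% under siRNA-2. AREG held 26.3% in the T24 control and 3.86% and 9.72% with the siRNAs, and NRG1 8.99%, 5.19% and 16.8%. The T24 sums were 83.2, 89.2 and 126 CPM per kilobase, so that the sum was not lower with either siRNA although AREG, TGFA and BTC were. In UM-UC-3 HBEGF held 47.7% in the control library, 40.3% under siRNA-1 and 23.0% under siRNA-2, and EREG 22.7%, 39.0% and 41.8%. EREG led in UM-UC-3 siRNA-2, and HBEGF and EREG were close in siRNA-1. The seventh ligand, NRG2, which is not a member, held 8.70% to 15.1% in UM-UC-3. EGF, EPGN and NRG4 were at no more than 0.44 CPM in each library and NRG3 was not listed.

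ERRFI1, the feedback inhibitor of the receptor kinases, had the highest level of all members per kilobase of exon in each of the 6 libraries, from 137 to 388 CPM per kilobase. It measured 617, 747 and 570 CPM across the T24 libraries (control, siRNA-1, siRNA-2), while UM-UC-3 gave 942, 1620 and 1252 CPM. In T24 the siRNA libraries lay on either side of the control (1.21 and 0.925 times its level), and in UM-UC-3 both lay above it (1.72 and 1.33 times). The log2 fold change was 0.60 ± 0.31 in UM-UC-3 (limma-trend, adjusted p = 1) and 0.08 ± 0.31 in T24, and the siRNA-2 library was lower than the siRNA-1 library by a like amount in both lines, at 0.763 and 0.773 times its level.

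**Figure D3:**
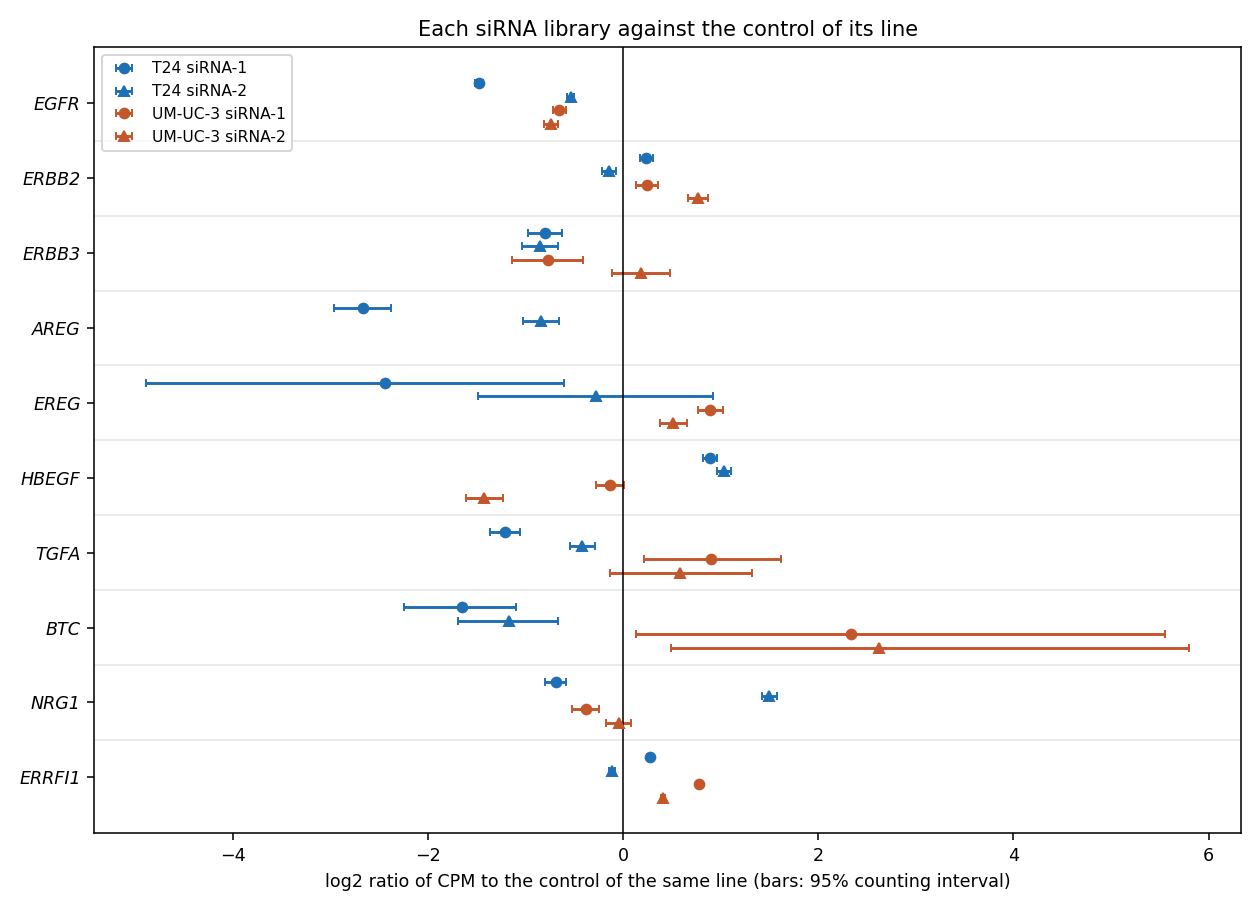
Log2 ratio of each member's CPM in each siRNA library to the control of the same line, with circles for siRNA-1, triangles for siRNA-2 and bars for the 95% exact binomial counting interval. EGFR lies below 0 in all 4 libraries, while HBEGF lies above 0 in T24 and at or below 0 in UM-UC-3.

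Counted over the members, the siRNA libraries of T24 were mostly below their control. In T24 6 of 10 members (AREG, BTC, EGFR, ERBB3, EREG and TGFA) were below the control in both siRNA libraries, against 30.3% of all 13584 genes tested, and 1 was above it in both, against 38.8%. EREG was tested in T24 through its level in UM-UC-3 and had 13 reads under siRNA-2 against 14 in the control, and 5 of the other 9 members were below in both. At a size of at least 1.5-fold 3 members (AREG, BTC and ERBB3) were below in both, against 11.1%. In UM-UC-3 3 of 9 (EGFR, HBEGF and NRG1) were below in both, against 30.3% of 13696 genes, and 5 (BTC, ERBB2, EREG, ERRFI1 and TGFA) above in both, against 40.1%. At least 1.5-fold, 1 was below (EGFR), against 3.19%, and 1 above (BTC, from 2 reads in the control), against 7.86%. The median log2 fold change of the members was -0.55 in T24 and 0.42 in UM-UC-3, beside 0.07 and 0.05 over all genes tested. Without EREG the T24 median was -0.79, and without BTC, whose own value is the UM-UC-3 median, the latter was 0.11. For 4 of the 9 members tested in both lines (EREG, TGFA, BTC and HBEGF) both siRNA libraries of one line lay on one side of the control and both of the other line on the opposite side, against 18.6% of all genes. This count includes EREG and BTC, tested in T24 and UM-UC-3 respectively only through their level in the other line. HBEGF in UM-UC-3 siRNA-1 (ratio 0.825 to 1.01) and TGFA in UM-UC-3 siRNA-2 (0.909 to 2.5) were within counting error of the control. The members are 10 genes read in the same libraries and are not replicates. By limma-trend 0 members passed in any comparison of siRNA with control, as did 0% of all genes. HSF1 itself did not pass, at a log2 fold change of -1.96 over both lines (limma-trend, adjusted p = 0.424). Its values were -2.26 in T24 and -1.66 in UM-UC-3. A gene that did not pass is thus not shown to be unchanged. At an unadjusted p under 0.05 stood 1 of 9 members over both lines (EGFR), against 9.9% of genes, 1 of 10 in T24 (BTC), against 12%, and 0 of 9 in UM-UC-3, against 3.18%. edgeR on the recovered reads passed 0 genes in each of these comparisons, and DESeq2 passed 87, 321 and 3 genes, with 0 members among them, though DESeq2 gave BTC no adjusted p within T24.

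Most members differed between the lines. Over the 3 libraries of each line, with treatment as a covariate, 8 of 9 members passed by limma-trend, against 39.6% of 13265 genes, 2 of them higher in UM-UC-3 and 6 lower. All 3 libraries of one line lay on one side of all 3 of the other for 9 of 9 members, 2 above (against 23.9% of all genes) and 7 below (against 27.1%). Both counts include EREG, under 1 CPM in each T24 library, and BTC, under 1 CPM in each UM-UC-3 library. They were tested through their level in the other line, so a difference between the lines was part of their entry. The other members that passed were EGFR, ERBB2, ERBB3, ERRFI1, HBEGF and TGFA. EREG was at 42.0 ± 12.6 CPM in UM-UC-3 and 0.395 ± 0.254 CPM in T24 (SD, n = 3), a log2 fold change of 4.92 ± 0.29 (SE, limma-trend, adjusted p = 5.64e-06). TGFA was at 1.57 ± 0.469 against 32.9 ± 12.8 CPM (-3.66 ± 0.33, adjusted p = 5.99e-05). HBEGF was at 24.3 ± 10.8 against 157 ± 53.3 CPM (-2.69 ± 0.41, adjusted p = 0.00117). Both of the latter are ligands of the same receptor as EREG. EGFR itself was at 125 ± 37.3 CPM in UM-UC-3 and 460 ± 216 CPM in T24 (-1.79 ± 0.27, limma-trend, adjusted p = 0.000954). ERBB2 (-1.12), ERBB3 (-1.53) and BTC (-1.32) were also lower in UM-UC-3, with adjusted p of 0.00666, 0.00323 and 0.00956. ERRFI1 was at 1271 ± 339 against 645 ± 91.7 CPM, higher in UM-UC-3 (0.95 ± 0.22, adjusted p = 0.00948), but without UM-UC-3 siRNA-1 it did not pass (0.80, adjusted p = 0.0651). NRG1 did not pass (-1.29 ± 0.48, adjusted p = 0.0622), and it did by DESeq2 (adjusted p = 0.00994) and without T24 siRNA-1 (-1.86, 0.0029), whereas without T24 siRNA-2 the value was -0.62 (adjusted p = 0.0921). Cell line cannot be told apart here from culture medium or from the time the samples were deposited. In such bulk RNA, fewer cells of a type and less RNA per cell cannot be told apart either.

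**Figure D4:**
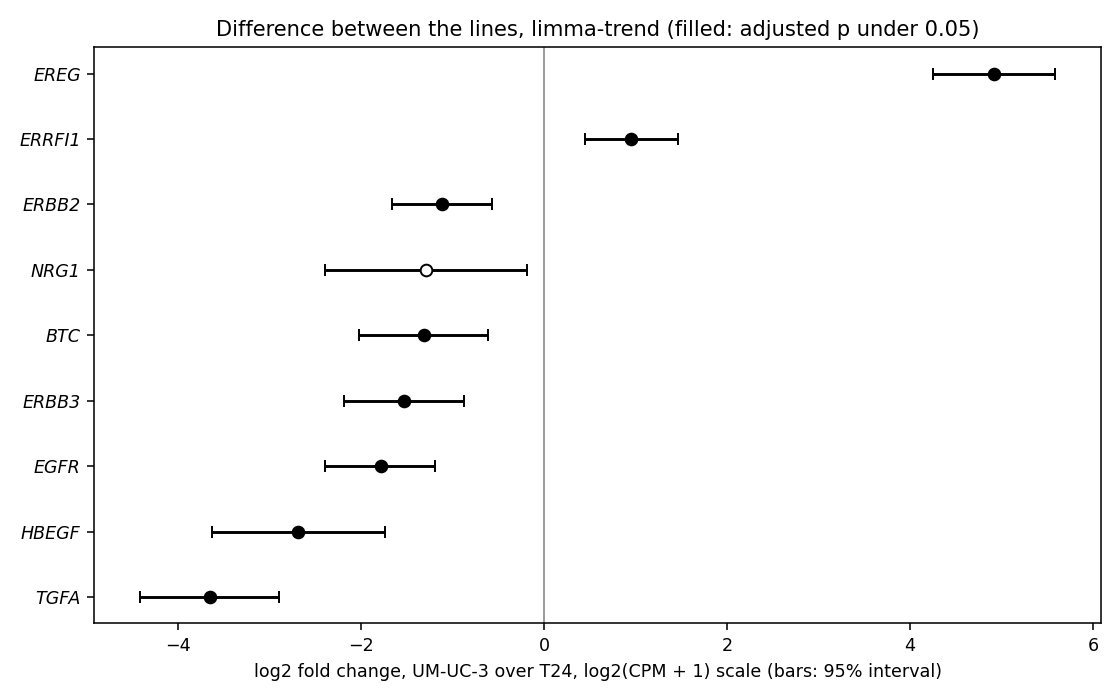
Log2 fold change of UM-UC-3 over T24 for the 9 members listed in both lines, from limma-trend with treatment as a covariate, with 95% intervals and filled points where the adjusted p is under 0.05. EREG (4.92) and ERRFI1 (0.95) lie above 0 and the other 7 below it, NRG1 with an open point.

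Genes around the receptors were described by lists. Over both lines 56.9% of all genes tested were above 0, with a median of 0.06. Of 13 tested genes that release or process the ligands, 8 were above 0 and 5 below over both lines, with a median of 0.08, and 0 passed. ADAM10 and ADAM17, the main sheddases of the ligands, stood at 213, 122 and 151 CPM and at 78.0, 84.1 and 56.9 CPM in T24, and at 251, 215 and 205 CPM and 56.4, 77.2 and 66.6 CPM in UM-UC-3. ADAM8 stood at 21.6, 7.16 and 9.83 CPM in T24 (log2 fold change -1.26, adjusted p = 0.343) and RHBDF2, the iRhom that carries ADAM17 to the surface, at 62.5, 90.4 and 114 CPM (0.69, adjusted p = 0.512). Between the lines 8 of the 13 passed, against 39.6% of all genes, among them ADAM12, higher in UM-UC-3 (3.65, limma-trend, adjusted p = 0.000103). The count includes the protease inhibitor SPINT2, at 163 to 221 CPM in T24 and at most 0.14 CPM in UM-UC-3. It also includes ADAM8, at 0.6, 0.367 and 1.09 CPM in UM-UC-3. Both entered the test through their level in T24, so a difference between the lines was part of their entry. Of 22 receptor adaptors and endocytic genes, 10 were above and 12 below 0 over both lines (median -0.01) and 0 passed. The smallest p were those of the epsin EPN1 (0.52, adjusted p = 0.499) and the ubiquitin ligase CBLB (0.76, adjusted p = 0.503). Of 19 genes of the RAS-MAPK and PI3K-AKT cascade, 8 were above and 11 below (median -0.03), and 0 passed.

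Feedback inhibitors other than ERRFI1 showed no common direction over both lines, with 8 of 20 above 0 and 12 below (median -0.09). Of all genes 56.9% were above 0, and 0 of the 20 passed. DUSP6, a phosphatase of ERK that ERK itself induces, had 66.4 CPM in the T24 control, 19.3 CPM under siRNA-1 and 22.8 CPM under siRNA-2, while the UM-UC-3 libraries gave 21.0, 17.5 and 12.2 CPM (-1.05 over both lines, unadjusted p = 0.00941, adjusted p = 0.424). SPRY4, an ERK-induced inhibitor of RAS signalling, lay above its control in both T24 siRNA libraries (280, 438 and 436 CPM), and UM-UC-3 gave 79.1, 76.8 and 42.4 CPM (T24 log2 fold change 0.64, adjusted p = 0.546). Genes listed here as outputs of ERK were mostly below their controls. This list was chosen with earlier results of these data known, so its counts are a description and not a test. Of 20 tested, 17 were below 0 over both lines with a median of -0.57, 17 in T24 (-0.46) and 16 in UM-UC-3 (-0.50), beside 0.06, 0.07 and 0.05 over all genes, and 0 passed. Of all genes tested, 56.9%, 54.9% and 55.6% were above 0 in these comparisons. In T24 8 of the 20 were at least 1.5-fold below the control in both siRNA libraries, against 11.1% of all genes, and in UM-UC-3 1 was, against 3.19%. The ERK target ELK3 measured 232, 77.3 and 109 CPM across the T24 libraries (control, siRNA-1, siRNA-2), while UM-UC-3 gave 399, 247 and 319 CPM (-0.92 over both lines, adjusted p = 0.424), and the receptor kinase EPHA2 had 770, 634 and 431 CPM and 474, 323 and 286 CPM (-0.60, adjusted p = 0.455). EGR1, an immediate early factor, had 594 CPM in the T24 control, 80.0 CPM under siRNA-1 and 46.6 CPM under siRNA-2, while the UM-UC-3 libraries gave 3.12, 3.01 and 2.39 CPM (-1.71 over both lines, adjusted p = 0.435). DUSP6 and SPRY4 are counted in both lists.

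**Figure D5:**
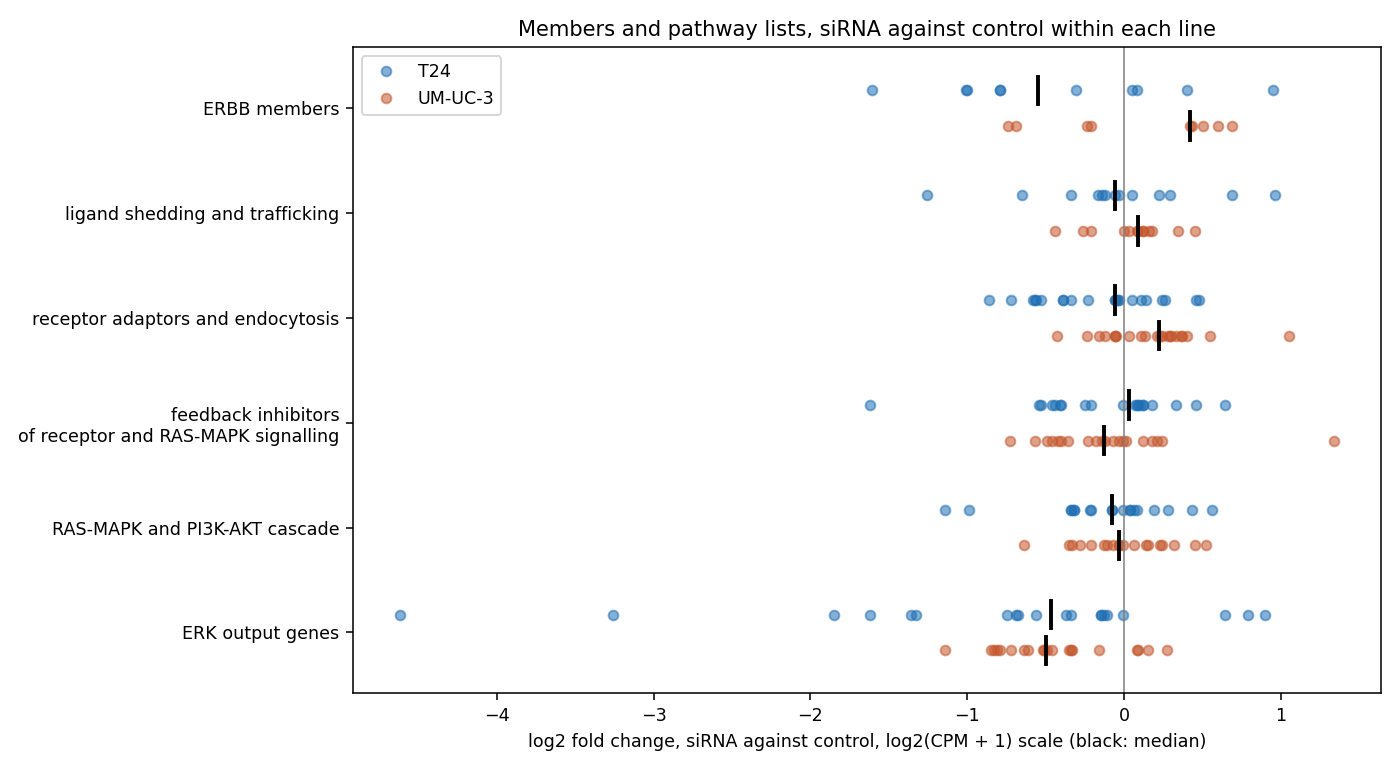
Log2 fold change of siRNA against control in T24 (blue) and UM-UC-3 (orange) for each tested gene of the members and of 5 pathway lists, on the log2(CPM + 1) scale, with the median as a black bar. The medians of the ERK output genes lie at -0.46 and -0.50, and those of the members at -0.55 (T24) and 0.42 (UM-UC-3), or 0.11 in UM-UC-3 without BTC, which has 2 control reads there.

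The genes most like each member were sought among 9417 genes listed in both lines with a mean of at least 10 CPM over the 6 libraries, by Pearson's r of log2(CPM + 1), less the mean of the line, over the 6 libraries. With 6 libraries and 4 free values such r are high for many genes, and they are a description. HBEGF was most like SPRY4 (r = 0.996), a gene of the feedback list, and the RNA-binding protein gene CNBP (0.995). EGFR was most like the replication gene DONSON (0.996), which read 39.9, 16.6 and 27.1 CPM across T24 while UM-UC-3 gave 37.7, 25.2 and 23.2 CPM, and the pyrophosphate transporter gene ANKH (0.996). TGFA was most like the topoisomerase gene TOP1 (0.999) and LRRFIP1 (0.994), BTC like the kinase gene MAP4K4 (0.993) and ANXA6 (0.992), and EREG like DNAJC6 (0.978) and C1orf216 (0.977). NRG1 was most like ABCB10 and DDX10 (0.997 each), ERRFI1 like ZNF33A (0.997) and ZNF600 (0.995), ERBB2 like ARHGEF12 and SMAP1 (0.995 each) and ERBB3 like TTC9C (0.996) and PPP2R5C (0.994).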

How the data were processed

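The authors deposited 1 table of CPM per library, scaled to the reads assigned to genes. Per the submitters' processing notes, the tools include bcl2fastq 2.19.1, HISAT2 2.1.0 and HTSeq 0.6.1, with GRCh37 (hg19) as build, and no roles are stated. Strandedness is not given in the sources. Each CPM was a whole multiple of the worth of 1 read within a tolerance of 0.01 read, once values of 0.5 read (178 to 259 genes a library) were taken as 0 reads, so reads were recovered from them. The limma fits kept the CPM as deposited, and their intervals reflect the spread between libraries. Intervals on the reads and on ratios to a control or between siRNA libraries cover counting error only. Genes with a mean of at least 1 CPM were tested with limma-trend (limma 3.58.1, R 4.3.3) on log2(CPM + 1), with Benjamini-Hochberg adjustment over all genes and a threshold of 0.05. The comparison over both lines had line as a covariate, those within a line and their difference used 4 group means, in which the single control is assumed to vary like the siRNA libraries, and the line comparison had treatment as a covariate. edgeR 4.0.16 and DESeq2 1.42.0 on recovered reads, other scalings, filters and pseudocounts, and leaving out each library were alternatives. Scripts were tested on simulated data. Genes listed by fewer than all libraries of a line were given 0 there. Exon lengths and promoters come from newer builds than the authors' and give no coordinates for their counts. Members and lists were chosen with earlier results of these data known. From each list up to 4 tested genes with the smallest p over both lines, and genes past the threshold in a comparison, could be named. ADAM17, ERBB4 and the markers with no call were named for their role after their values were seen.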

Additional observations from a re-analysis of the deposited data

Results flagged for a closer look

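For 4 ligands every siRNA library of one line lay on one side of its control and every siRNA library of the other line on the opposite side, as they did for 18.6% of all genes tested. The difference of the siRNA effect, UM-UC-3 minus T24, was 1.00 for EREG, 1.22 for TGFA, 1.43 for BTC and -1.69 for HBEGF on the log2 scale. The difference was tested for each with limma-trend and passed for none (adjusted p = 0.948 each), with unadjusted p of 0.11, 0.0854, 0.0146 and 0.0545, and 4.69% of all genes had an unadjusted p under 0.05. BTC had 2 reads in the UM-UC-3 control and EREG 3 to 14 reads in the T24 libraries. Both were tested in those lines only through their level in the other line. Within counting error of the control were EREG in T24 siRNA-2 (ratio 0.823, interval 0.356 to 1.89), HBEGF in UM-UC-3 siRNA-1 (0.825 to 1.01) and TGFA in UM-UC-3 siRNA-2 (0.909 to 2.5).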

How the results depend on the processing

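Of 766 member values under alternatives 726 kept their direction and side of the threshold, 31 reversed, 8 passed the threshold and 1 no longer did. Of those for UM-UC-3 against T24, 129 of 133 kept both. Some values could not reverse, since leaving out a library of one line does not alter the estimates within the other. The replicate block did not alter the estimates either. No member passed in the main siRNA comparisons, so none could stop passing there. No gene passed by limma-trend over both lines, within T24, within UM-UC-3 or in their difference, where DESeq2 passed 87, 321, 3 and 37. siRNA-2 against siRNA-1 passed 37 genes, 258 by DESeq2, and 0 with no filter, TMM scaling, upper quartile scaling or edgeR. Leaving out 1 library gave 0 to 566 genes within T24 and 0 to 485 for siRNA-2 against siRNA-1. With the replicate block, a term for the siRNA number, 847 genes passed within T24, 12 within UM-UC-3 and 119 in the difference, and NRG1 passed between the lines (adjusted p = 0.00558). The numbers were not shown to pair cultures, with r = 0.417 between the lines' siRNA-1 minus siRNA-2 differences over 13265 genes. Over both lines EREG was -0.140 and BTC 0.120 with a pseudocount of 0.1, and EREG -0.044 by DESeq2. Within T24 ERBB2 was -0.018 with TMM scaling, -0.036 by edgeR and -0.016 by DESeq2, and ERRFI1 -0.001 by edgeR. Leaving out 1 library at a time, the log2 fold change over both lines ranged from -0.739 to 0.954 for HBEGF, -0.788 to 0.433 for TGFA, -0.410 to 0.518 for NRG1 and -0.309 to 0.686 for EREG. Within T24 it ranged from -0.140 to 0.236 for ERBB2, -0.112 to 0.277 for ERRFI1 and -0.680 to 1.486 for NRG1, and within UM-UC-3 from -0.646 to 0.162 for ERBB3. The difference ranged from -0.155 to 0.777 for EGFR and -1.695 to 0.471 for NRG1. For siRNA-2 against siRNA-1 it ranged from -0.036 to 0.883 for EGFR, -0.377 to 0.518 for ERBB2, -0.077 to 0.838 for ERBB3, -0.517 to 0.573 for EREG, -1.472 to 0.394 for HBEGF, -0.391 to 0.944 for TGFA, -0.244 to 0.627 for BTC and -0.525 to 0.225 for HSF1. The cause was not tested. Leaving aside EREG in T24 and BTC in UM-UC-3, a choice made after seeing the data, the member medians were -0.79 and 0.11. With 1 control a line, the spread between controls was not measured, and at 2 reads the level of BTC is not resolved.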
